A study of Homo sapiens with 6 samples.

Results

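The AID/APOBEC family and the enzymes that remove uracil from DNA were examined in the SW620 human colon cancer cell line. The group holds 10 genes, namely the 7 APOBEC3 genes (APOBEC3A, APOBEC3B, APOBEC3C, APOBEC3D, APOBEC3F, APOBEC3G and APOBEC3H), APOBEC1, and the uracil DNA glycosylases UNG and SMUG1. They are 10 of the 60835 gene names in the deposited count table, taken by exact match of the name. The set was selected on the lower counts of APOBEC3B and UNG in the knockdown libraries. The values of this contrast are therefore given for the 10 genes as a description, and no p-value is printed for them. Whether each gene passed the threshold of the fit over all genes is given in the same way and is no support.

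The study sequenced 6 libraries. Of these, 3 came from cells carrying a control vector (shControl, genotype label WT, batch_A) and 3 from cells with a stable short hairpin RNA against dynamin 1 (shDNM1, genotype label DNM1 Knockdown, batch_B). All were grown in high-glucose DMEM with fetal bovine serum, and the study asked which genes change when DNM1, a GTPase of endocytic vesicle scission, is depleted. The labels name neither the hairpin sequence nor how many hairpins or clones were used.

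APOBEC3 enzymes are cytidine deaminases that turn cytosine into uracil in single-stranded DNA. They restrict retroviruses and retrotransposons, and APOBEC3A and APOBEC3B are the members best known for leaving C-to-T and C-to-G mutations in tumour genomes. UNG cuts the uracil base out of DNA and so starts base excision repair, with SMUG1 as another glycosylase for the same lesion. APOBEC1 edits the apolipoprotein B mRNA in the small intestine.

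Batch and hairpin cannot be told apart here, because each batch label holds libraries of 1 group only. Nothing in the labels ties the 3 libraries of a group to separate cultures, so the p-values here rest on a spread that may be technical. Library totals ran from 12844534 to 13537519 counts. DNM1 itself was at 129 ± 3.78 CPM (library counts scaled by TMM to a common depth) in shControl and 116 ± 16.1 in shDNM1 (SD, n = 3), a log2 fold change of -0.15 (SE 0.083) with an edgeR quasi-likelihood adjusted p of 0.189. The DNM1 mRNA was thus not called lower in the libraries labelled shDNM1, except when shDNM1 replicate 1 was left out (log2 fold change -0.20, edgeR adjusted p = 0.0399). Of 16744 genes tested, 5337 (31.9%) had an adjusted p under 0.05 in edgeR's quasi-likelihood test and are termed called, 2617 (15.6%) of them higher and 2720 (16.2%) lower in shDNM1. The median log2 fold change over all genes tested was -0.01. Of 12 colon epithelial markers 10 were tested, 5 were called higher (KRT8, KRT18, KRT19, CDH1 and CDX2) and 1 lower (EPCAM). CDH1 lost its call when any library other than shDNM1 replicate 1 was left out (edgeR adjusted p up to 0.173), and EPCAM without shControl replicate 1 or 3 or shDNM1 replicate 3 (up to 0.126). KRT8 was abundant, at 5776 and 6939 CPM in shControl and shDNM1, and EPCAM was at 420 and 372 CPM. The intestinal factor CDX2 rose 2.47-fold (8.06 to 19.9 CPM, edgeR adjusted p = 1.66e-06). The differentiation markers KRT20, CDH17, GPA33 and LGALS4 were scarce, with group means from 0.466 to 1.64 CPM, and CDX1 had no count in any library. VIL1 of the same list was abundant, at 349 CPM in shControl and 328 CPM in shDNM1, and was not called. Of 16 leukocyte markers 13 did not pass the low-count filter, and CD2, CD3E, MS4A1 and TYROBP had no count in any library. The summed level of the 16 ran from 29.9 to 33.1 CPM in shControl and from 18.3 to 19.5 CPM in shDNM1, mostly through CD4 (24.0 and 11.3 CPM). The myeloid receptor gene CSF1R went the other way, from 1.10 to 3.92 CPM (edgeR adjusted p = 0.000367), and LYZ was at 3.82 and 1.72 CPM. The 8 fibroblast markers summed to 31.3 to 38.9 CPM in shControl and 42.8 to 57.3 CPM in shDNM1. Of these, 3 were tested, while COL1A2, COL3A1, DCN, PDGFRA and THY1 did not pass the low-count filter. LUM (23.1 to 32.1 CPM) and PDGFRB (1.85 to 4.93 CPM) were called higher, and COL1A1 (11.1 and 11.9 CPM) was not called. The call of LUM was lost in 5 of 17 alternatives. The part of these marker levels in the results below was not tested.

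Of the 10 genes, 7 passed the low-count filter. Of these, 5 were lower in shDNM1 (APOBEC3B, APOBEC3C, APOBEC3F, APOBEC3G and UNG), none was called higher, and APOBEC3D and SMUG1 were not called. Over all genes tested 16.2% were called lower, and since this contrast chose the genes nothing is read from the difference in share. The libraries of the 2 groups did not overlap for 6 of the 7 genes tested (5 lower, and SMUG1 higher), against 44.3% of all genes tested and 23.1% lower without overlap. The median log2 fold change of the 7 was -1.05. The other 3 genes (APOBEC3A, APOBEC3H and APOBEC1) were near 0 counts throughout.

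APOBEC3B, a double-domain deaminase of the nucleus, had the lowest log2 fold change of the 7 genes tested. It had 685, 877 and 815 counts in the 3 shControl libraries and 131, 157 and 191 in the 3 shDNM1 libraries. Scaled to depth these are 52.5, 64.6 and 62.8 CPM against 10.2, 12.5 and 14.5 CPM. Every shDNM1 library was far below the lowest shControl library, at 17.0% to 24.2% of the shControl mean. The mean went from 60.0 ± 6.53 to 12.4 ± 2.17 CPM (SD, n = 3), which is 20.7% of control and a log2 fold change of -2.27 (SE 0.117). Among all genes called lower APOBEC3B ranked 37 by log2 fold change, and 65 genes (0.388% of those tested) were called and at least 4-fold lower. In bulk RNA a lower level in every cell and fewer cells with the transcript cannot be told apart.

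APOBEC3C, a single-domain enzyme and the most abundant by length-normalised level, was lower by about the same factor in each shDNM1 library. Its counts were 1802, 2133 and 1894 in shControl and 886, 955 and 901 in shDNM1. The means were 147 ± 9.53 and 71.1 ± 4.32 CPM (SD, n = 3), with a log2 fold change of -1.05 (SE 0.071), so that 48.4% of the control level was left.

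APOBEC3F, a cytoplasmic double-domain enzyme that restricts HIV lacking Vif, had 945, 970 and 959 counts in shControl and 424, 448 and 481 in shDNM1. The groups were 72.6 ± 1.25 and 35.1 ± 1.90 CPM (SD, n = 3), a log2 fold change of -1.05 (SE 0.0745) and 48.3% of control. APOBEC3G, the best studied restriction factor of the family, had 556, 592 and 574 counts in shControl and 241, 265 and 253 in shDNM1. It went from 43.5 ± 0.820 to 19.7 ± 1.27 CPM (SD, n = 3), a log2 fold change of -1.14 (SE 0.0877) and 45.3% of control. The 3 genes APOBEC3C, APOBEC3F and APOBEC3G therefore lay within 45.3% to 48.4% of control, with no shared values between the groups for any of them. Among all genes tested 495, 2.96% of those tested, were called and at least 2-fold lower.

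APOBEC3D was scarce. It had 24, 16 and 27 counts in shControl and 8, 15 and 9 in shDNM1, or 1.70 ± 0.467 and 0.834 ± 0.315 CPM (SD, n = 3). Its log2 fold change of -1.02 had an SE of 0.386, and shDNM1 replicate 2 (1.20 CPM) was above shControl replicate 2 (1.18 CPM). It passed the low-count filter through the shControl libraries alone. Its call depended on the settings, since it was called lower in 7 of 17 alternatives, among them those without shControl replicate 2 (log2 fold change -1.23) and without shDNM1 replicate 2 (log2 fold change -1.36).

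The remaining 3 deaminases were at the edge of detection. APOBEC3A, a single-domain enzyme that is strongly induced by interferon in myeloid cells, had 4, 10 and 2 counts in shControl and 2, 1 and 1 in shDNM1. APOBEC3H had 2, 4 and 3 counts in shControl and 0, 0 and 1 in shDNM1. APOBEC1 had 1 count in all, in shControl replicate 2. No fold is given for these genes, whose counts are mostly within the 3 counts that a count of 0 allows in a library (0.222 to 0.234 CPM, counting error only).

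**Figure D1:**
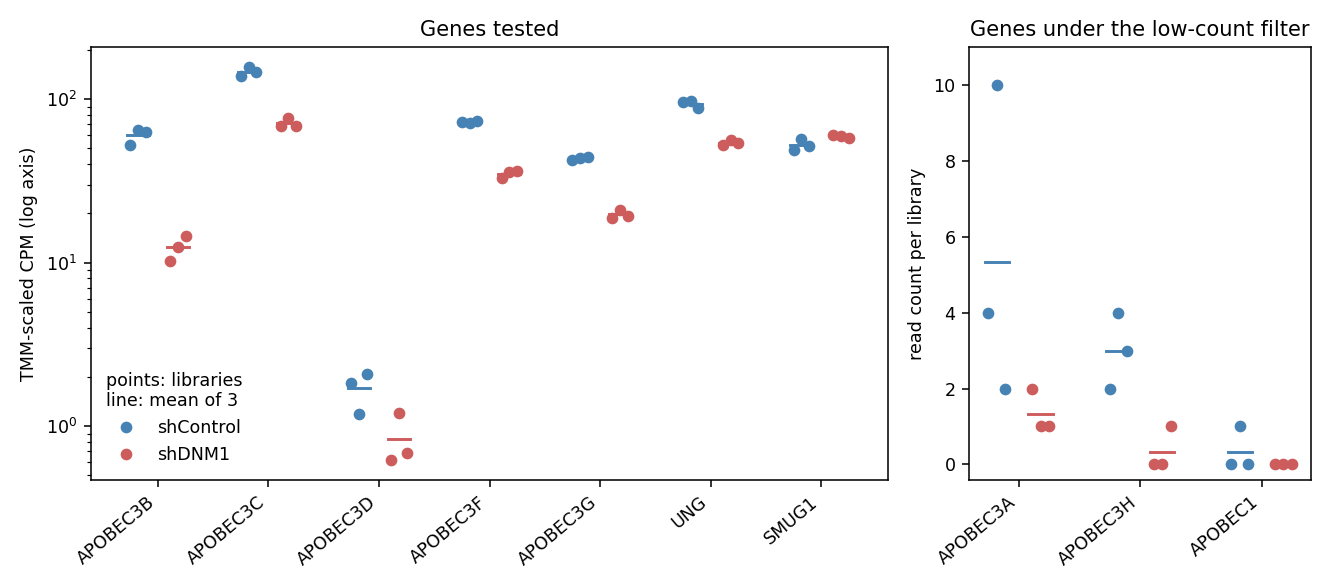
Levels of the 10 genes by library. Left, TMM-scaled CPM on a log axis for the 7 genes tested; right, raw counts for the 3 genes under the low-count filter; points are libraries and lines are means of 3. The APOBEC3B points of shDNM1 lie between 10.2 and 14.5 CPM and those of shControl between 52.5 and 64.6 CPM, while the SMUG1 points lie close together.

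Levels of different genes were compared on the deposited TPM, which are scaled for transcript length. In shControl APOBEC3C was the highest at 169 ± 8.72 TPM, followed by UNG (99.4 ± 5.45) and APOBEC3B (99.0 ± 9.59), which did not differ beyond their spread. SMUG1 came next at 59.7 ± 3.91 TPM, then APOBEC3F (49.2 ± 1.24) and APOBEC3G (47.8 ± 0.691), whose libraries overlapped, and APOBEC3D was far lower at 2.06 ± 0.581 (SD, n = 3 for each). In shDNM1 the order was APOBEC3C (78.7 ± 2.41 TPM), SMUG1 (65.0 ± 2.32), UNG (55.3 ± 0.654), APOBEC3F (22.8 ± 1.11), APOBEC3G (20.7 ± 0.677) and APOBEC3B (19.7 ± 3.41). APOBEC3B, level with UNG in shControl, thus stood beside APOBEC3F and APOBEC3G in shDNM1, where its libraries overlapped those of both genes.

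The TPM of the 7 APOBEC3 genes summed to 350, 383 and 374 in shControl and to 138, 146 and 146 in shDNM1, so that 38.8% of the summed level was left. APOBEC3B made up 25.1% to 27.7% of that sum in the shControl libraries and 12.0% to 16.0% in the shDNM1 libraries. The share of APOBEC3C was 45.9% ± 0.878 in shControl and 55.0% ± 2.11 in shDNM1, and APOBEC3F had shares of 13.4% ± 0.871 and 15.9% ± 0.571 (SD, n = 3). The ratio of APOBEC3B to APOBEC3C CPM, which does not depend on library scaling, was 0.380, 0.411 and 0.430 in shControl and 0.148, 0.164 and 0.212 in shDNM1. Against APOBEC3G the ratio was 1.38 ± 0.130 and 0.630 ± 0.111. The 3 shControl values of each ratio lay above the 3 shDNM1 values.

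**Figure D2:**
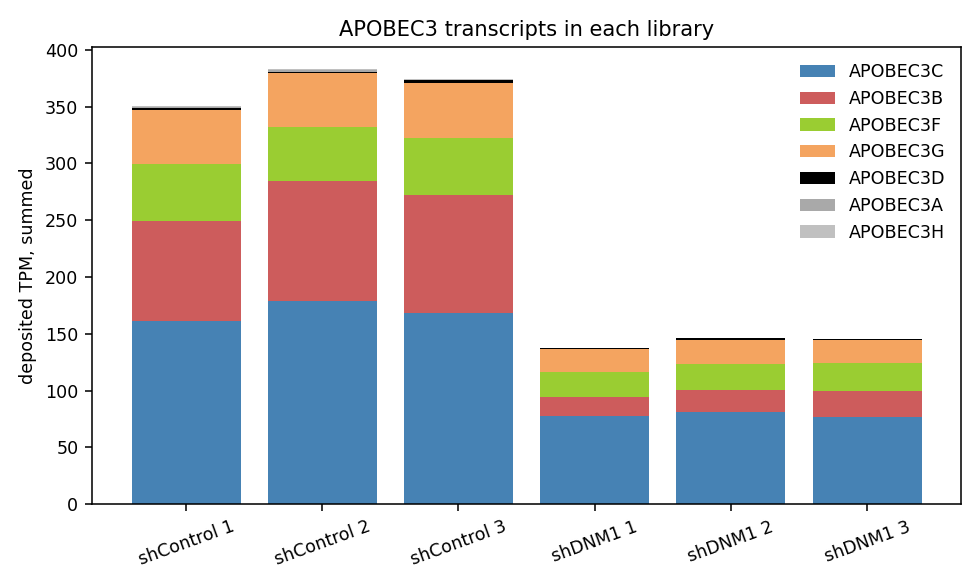
Deposited TPM of the 7 APOBEC3 genes, stacked for each library. The shControl columns reach 350 to 383 TPM and the shDNM1 columns 138 to 146 TPM, with the APOBEC3B segment shrinking from 26.8% to 13.7% of the column on average.

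The APOBEC3 genes arose by duplication and stand side by side on the plus strand of chromosome 22, so reads can be shared between copies. In the deposited GRCh38 intervals APOBEC3B covers chr22:38982347-38992804, APOBEC3C chr22:39014257-39020352, APOBEC3F chr22:39040604-39055972 and APOBEC3G chr22:39077067-39087743. The interval given for APOBEC3A, chr22:38952741-38992778, runs through almost all of APOBEC3B on the same strand, and the antisense transcript APOBEC3B-AS1 (1, 2 and 3 counts in shControl, 0 in shDNM1) overlaps it on the other strand. To state the risk, every window of the longest coding transcript of each gene was searched for in the GENCODE 29 transcripts of all other genes. At a window of 100 bases, 27.7% of the APOBEC3B windows occurred unchanged in another gene, 20.1% in APOBEC3A, 5.73% in APOBEC3D and 1.83% in APOBEC3F. Of the windows of the longest APOBEC3A transcript, 12.7% occurred in APOBEC3B. The GENCODE 29 interval of APOBEC3A also runs over APOBEC3B. How much of the 20.1% is the same bases listed under both names was not tested. For APOBEC3F the share was 13.5% and for APOBEC3G 11.3%, the latter all with APOBEC3F. APOBEC3C had none at 100 bases and 1.16% at 50 bases, and UNG, SMUG1, APOBEC3H and APOBEC1 had none at any length from 50 to 150 bases. For UNG this holds for the GENCODE 29 gene, which ends at chr12:109110992, whereas the deposited interval ends at 109126725. The search could therefore not show what the longer deposited interval shares with the overlapping gene ACACB. APOBEC3D shared 84.4% of its windows, mostly with the overlapping transcript model AL022318.4 (83.2%), so its few counts are uncertain.

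How long the reads were, and how reads matching several genes were handled, is not stated by the labels or files, so how the APOBEC3A and APOBEC3B reads were split cannot be recovered. Summed into 1 feature, APOBEC3A and APOBEC3B had a log2 fold change of -2.27, a sum that APOBEC3B sets, since APOBEC3A had 16 counts in all shControl libraries against 2377 for APOBEC3B. Summing all 7 APOBEC3 genes gave -1.22, with 4018, 4602 and 4274 counts in shControl and 1692, 1841 and 1837 in shDNM1. The part of shared reads in the values of these genes was not tested.

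**Figure D3:**
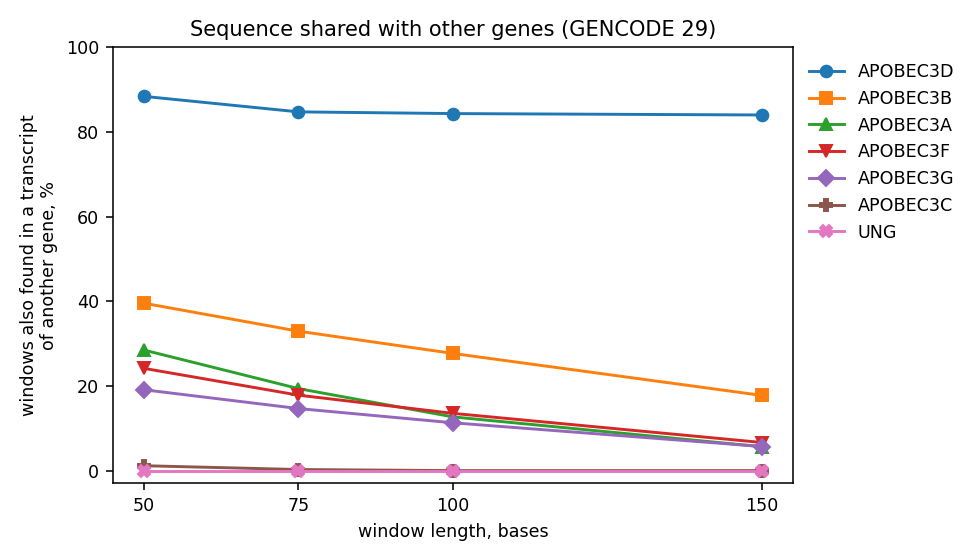
Percent of sequence windows of a gene's longest coding transcript that also occur in a transcript of another gene, by window length (50, 75, 100 and 150 bases). APOBEC3B falls from 39.6% at 50 bases to 17.8% at 150 bases, APOBEC3D stays above 80% at every length, and UNG is at 0. Transcripts are from GENCODE 29, where the UNG gene is shorter than its deposited interval.

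Other genes around the cluster were listed by position. Within 250 kb of the APOBEC3A to APOBEC3H interval 9 other protein-coding genes were tested, of which 1 was called higher, 5 lower and 3 neither, against 15.6% higher and 16.2% lower over all genes, with a median log2 fold change of -0.36. On the APOBEC3A side NPTXR, a neuronal pentraxin receptor, fell to 28.6% of control (edgeR adjusted p = 1.29e-05), whereas the nuclear envelope gene SUN2 rose 1.24-fold (edgeR adjusted p = 0.0023). CBX6, DNAL4 and GTPBP1 on that side were not called, at log2 fold changes of 0.15, -0.16 and 0.03. On the APOBEC3H side 4 genes were called lower. PDGFB, a growth factor gene, fell to 60.5% of control (edgeR adjusted p = 7.77e-05), the synaptic vesicle gene SYNGR1 to 54.5% (0.00107) and the ribosomal protein gene RPL3 to 77.8% (0.000424). CBX7 was at 72.1% (0.0346), but its groups overlapped and its call was lost in 8 of 17 alternatives, among them those without shControl replicate 2 or 3 and without shDNM1 replicate 1 or 3 (adjusted p up to 0.121). Beside these, APOBEC3B, APOBEC3C, APOBEC3F and APOBEC3G, which were selected in part on this contrast, had log2 fold changes of -2.27, -1.05, -1.05 and -1.14.

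**Figure D4:**
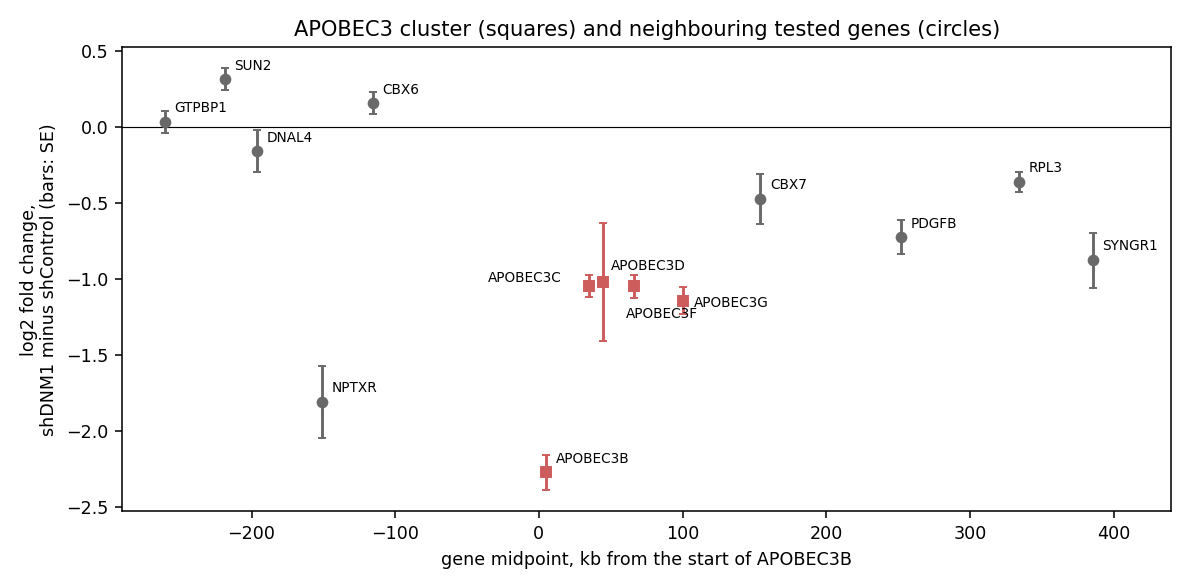
Log2 fold change (shDNM1 minus shControl, bars are SE) against the distance of each gene's midpoint from the start of APOBEC3B in kb. Squares are APOBEC3 genes and circles other tested protein-coding genes; APOBEC3B lies at -2.27, the other APOBEC3 genes between -1.02 and -1.14, and NPTXR at -1.81.

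UNG is the main uracil DNA glycosylase. Its upstream promoter gives the nuclear form, which acts at replication forks, and its downstream promoter the mitochondrial form. The RefSeq windows at both starts (GRCh38.p14, 250 bases before to 50 after each start) are shown because the gene count adds both forms. Capitals mark matches to the E2F core words TTCCCGC or TTGGCGC or TTGCCGC or TTCGCGC on either strand.
UNG window at chr12:109097347-109097646, plus strand: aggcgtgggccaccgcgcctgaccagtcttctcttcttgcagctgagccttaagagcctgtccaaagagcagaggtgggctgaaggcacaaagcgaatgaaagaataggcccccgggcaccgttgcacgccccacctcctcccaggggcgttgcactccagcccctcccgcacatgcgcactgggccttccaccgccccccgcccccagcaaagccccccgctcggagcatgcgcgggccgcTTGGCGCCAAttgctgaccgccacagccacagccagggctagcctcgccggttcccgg
UNG window at chr12:109097922-109098221, plus strand: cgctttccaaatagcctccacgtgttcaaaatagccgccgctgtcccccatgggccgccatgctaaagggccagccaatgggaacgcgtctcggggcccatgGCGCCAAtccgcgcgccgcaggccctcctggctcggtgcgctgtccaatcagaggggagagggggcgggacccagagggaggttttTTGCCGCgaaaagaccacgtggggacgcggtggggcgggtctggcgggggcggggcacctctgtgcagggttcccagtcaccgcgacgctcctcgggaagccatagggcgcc
Each window held 2 matches, at -8 and -5 from the start in the first window, where they overlap, and at -148 and -62 in the second. Of 35116 promoter windows of this length 13.0% held such a word. The downstream window also held 3 CCAAT words and 2 CACGTG words (both strands), which 34.6% and 7.26% of all windows hold. The upstream window held 1 and 0 of these. TTTGAA or TTCGAA, in 16.4% of all windows, occurred 1 time downstream and 0 times upstream. GGGCGG, in 45.0% of all windows, occurred 3 times downstream and 2 times upstream. The words are letters in a window and no measure of binding.

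UNG had 1248, 1320 and 1138 counts in shControl and 672, 710 and 708 in shDNM1. The lowest shControl library was well above the highest shDNM1 library. The mean went from 93.5 ± 5.09 to 54.2 ± 2.23 CPM (SD, n = 3), a log2 fold change of -0.79 (SE 0.0712), so that 57.9% of control was left. UNG ranked 785 by log2 fold change among the 2720 genes called lower. The deposited interval, chr12:109097597-109126725, overlaps the start of ACACB on the same strand. The window search above did not cover this overlap, and the part of reads shared with ACACB was not tested. ACACB, a mitochondrial acetyl-CoA carboxylase, was at 78.6% of control (edgeR adjusted p = 0.0109, and 0.0752 at the highest over the alternatives, with the call lost without shControl replicate 3). The other tested genes within 100 kb, USP30 and the DNA dealkylase ALKBH2, were at 83.7% and 94.0% of control and not called.

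SMUG1, on the minus strand at chr12:54121277-54189008, had 640, 775 and 667 counts in shControl and 778, 751 and 765 in shDNM1. Its level was 52.5 ± 4.12 CPM among shControl libraries against 59.5 ± 1.18 CPM with shDNM1 (SD, n = 3), a log2 fold change of 0.18 (SE 0.0762). The shDNM1 libraries lay just above the highest shControl library (57.1 CPM). SMUG1 was called higher in 1 of 17 alternatives, the one without shControl replicate 2 (log2 fold change 0.24). The ratio of UNG to SMUG1 CPM was 1.95, 1.70 and 1.71 in shControl and 0.864, 0.945 and 0.925 in shDNM1. Per length, UNG was 1.67 ± 0.132 times SMUG1 in shControl and 0.852 ± 0.0398 times in shDNM1, so the order of both glycosylases was reversed between the groups. Near SMUG1, HOXC4 (59.7%) and HNRNPA1 (88.7%) were called lower (edgeR adjusted p = 0.0296 and 0.0280) and HOXC6 and CBX5 were not called; each of these 2 calls was lost in 6 of 17 alternatives, in both cases without shControl replicate 1 or 3 or without shDNM1 replicate 3, for HOXC4 also without shDNM1 replicate 2 and for HNRNPA1 also without shControl replicate 2 (adjusted p up to 0.124 and 0.0872).

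Among other family genes and APOBEC1 cofactors, 5 of 10 were tested and 3 were called lower, against 16.2% over all genes. The pseudogene APOBEC3AP1 had no count in any library. A1CF, the RNA-binding partner of APOBEC1, fell to 45.3% of control (6.83 ± 0.556 to 3.09 ± 0.160 CPM, n = 3, edgeR adjusted p = 0.000148), in cells where APOBEC1 itself had 1 count in all. RBM47, another partner of APOBEC1, was at 83.7% (adjusted p = 0.0203) and SYNCRIP at 87.7% (0.0421). RBM47 lost its call without shControl replicate 3 or shDNM1 replicate 3 (edgeR adjusted p up to 0.117), and SYNCRIP without shControl replicate 1 or 2 or shDNM1 replicate 3 (up to 0.264). Without shDNM1 replicate 3 the count of this list called lower was 1.

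The other DNA glycosylases remove thymine, alkylated or oxidised bases. Of 9 tested, 2 were called higher, none lower and 7 neither, against 15.6% called higher and 16.2% lower over all genes, and their median log2 fold change was 0.17. TDG, which removes thymine and uracil opposite guanine, rose 1.28-fold (55.7 ± 1.45 to 71.4 ± 4.47 CPM, n = 3, edgeR adjusted p = 0.00093). MPG, which removes alkylated bases, rose 1.43-fold (22.3 ± 2.71 to 31.8 ± 4.75 CPM, n = 3, edgeR adjusted p = 0.00234). MBD4, which acts on the same mismatches as TDG, was at 39.0 ± 2.92 and 39.2 ± 5.35 CPM. The oxidised-base glycosylases NTHL1, OGG1 and NEIL2 were at 127%, 120% and 113% of control and NEIL1, NEIL3 and MUTYH at 79.9%, 94.0% and 96.8%, none of them called. 1 glycosylase, NEIL1, was called lower without shDNM1 replicate 1. NTHL1 was called higher without shControl replicate 1 or without shDNM1 replicate 1, and OGG1 was called higher without shControl replicate 2.

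For the steps of base excision repair after base removal 15 genes were tested. Of these, 1 was called higher, 2 lower and 12 neither, against 15.6% and 16.2% over all genes, with a median log2 fold change of 0.03. The called genes were PARP2, a sensor of strand breaks, which rose 1.31-fold (edgeR adjusted p = 0.00115), and the flap nuclease FEN1 and the ligase LIG1 of the long-patch branch, at 78.8% (0.00111) and 79.7% (0.00136) of control. Among the replication fork partners of UNG and the FAM72 genes, whose protein FAM72A binds UNG and promotes its degradation, 8 of 9 were tested, 1 was called higher and 1 lower (15.6% and 16.2% over all genes). The subunit RPA1 rose 1.17-fold (edgeR adjusted p = 0.00767) and the clamp PCNA fell to 85.1% (0.00996), a call that was lost without shDNM1 replicate 3 (0.0826). RPA2, RPA3, PPM1D, FAM72A, FAM72B and FAM72D were not called, at 113%, 87.1%, 104%, 93.8%, 95.7% and 123% of control. Without shDNM1 replicate 3 the same list had 2 genes called higher and 0 lower. The FAM72 genes are near-identical copies, so the split of their reads is uncertain.

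Several enzymes that supply thymidylate, or keep dUTP low so that less uracil is built into DNA, were lower along with UNG. Of 14 genes tested 6 were called lower, 3 higher and 5 neither, against 16.2% and 15.6% over all genes, with a median log2 fold change of -0.06. SHMT1, which feeds carbon units from serine into thymidylate synthesis, fell to 55.0% (49.0 ± 2.35 to 26.9 ± 1.69 CPM, n = 3, edgeR adjusted p = 4.20e-07). The salvage kinase TK1 fell to 67.2% (edgeR adjusted p = 3.56e-06) and the thymidylate kinase DTYMK to 75.6% (0.000426). Thymidylate synthase, TYMS, fell to 66.0% (edgeR adjusted p = 0.000948) and the dUTPase DUT to 80.6% (0.00257). In the opposite direction the cytidine deaminase of nucleoside salvage, CDA, rose 1.88-fold (18.6 ± 2.19 to 34.9 ± 1.14 CPM, n = 3, edgeR adjusted p = 1.90e-06). RRM2, a subunit of ribonucleotide reductase, rose 1.19-fold (0.0106) and the dNTP hydrolase SAMHD1 1.15-fold (0.0362). The count of 6 lower genes held without each library in turn, and the count of higher genes was 1 without shDNM1 replicate 2.

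In mismatch repair and the bypass of abasic sites 4 of 13 genes tested were called lower and none higher, against 16.2% and 15.6% over all genes. They were the mismatch sensor subunit MSH6 (82.2% of control, edgeR adjusted p = 0.00254), the ubiquitin ligase RAD18 (79.3%, 0.00414), and the translesion polymerase genes REV3L (77.4%, 0.0296) and POLI (72.5%, 0.0441). REV3L and POLI each lost the call without shControl replicate 1 or 3 and without shDNM1 replicate 2 or 3. Over all alternatives their adjusted p reached 0.215 (DESeq2) and 0.156 (edgeR without shControl replicate 3). The count called lower was 2 without shControl replicate 1, shControl replicate 3 or shDNM1 replicate 3, and 1 gene was called higher without shDNM1 replicate 1.

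The DREAM repressor complex, its activating counterpart built on MYBL2, and E2F factors are known to act on the APOBEC3B promoter in proliferating cells. Of 22 listed genes 21 were tested, 10 were called lower and none higher, against 16.2% called lower over all genes, with a median log2 fold change of -0.18. RBBP4, a histone-binding subunit of the MuvB core, fell to 56.7% of control (262 ± 3.68 to 149 ± 7.22 CPM, n = 3, edgeR adjusted p = 1.76e-08). The retinoblastoma gene RB1 was at 70.6% (edgeR adjusted p = 4.05e-05), the E2F partner TFDP2 at 68.0% (2.70e-05) and the DNA-binding MuvB subunit LIN54 at 74.2% (0.000381). FOXM1, an activator of mitotic genes, was at 83.7% (edgeR adjusted p = 0.00756, and 0.0559 without shDNM1 replicate 3). MYBL2, named here after its value was seen, was at 84.0% (0.0103). The genes called lower thus include parts of both repressing and activating complexes.

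Protein kinase C and NF-kappaB signalling is another known input to APOBEC3B. Of 21 listed genes 19 were tested, with 8 called higher, 3 lower and 8 neither, against 15.6% and 16.2% over all genes, and a median log2 fold change of 0.20. PRKCA, a classical protein kinase C isoform, fell to 53.3% of control (172 ± 9.39 to 91.8 ± 3.17 CPM, n = 3, edgeR adjusted p = 1.20e-08), and NFKB1 fell to 68.8% (0.00064). The other way, NFKB2 rose 1.44-fold (edgeR adjusted p = 5.15e-05), RELA 1.25-fold (0.000683), RELB 1.41-fold (0.0144) and MAP3K14, the kinase of the non-canonical branch, 1.28-fold (0.0147). RELB lost its call without shControl replicate 1 or 2 (edgeR adjusted p up to 0.0589), and MAP3K14 without shControl replicate 1 or 3 or shDNM1 replicate 3 (over all alternatives up to 0.099, in limma-trend on log2(TPM + 1)). Unlike PRKCA, the protein kinase C genes PRKCE and PRKCD, named here after their values were seen, were called higher. PRKCE rose 1.42-fold (edgeR adjusted p = 0.0264) and PRKCD 1.18-fold (0.0379), with overlapping groups for PRKCD. The count called higher was 3 without shControl replicate 1, shControl replicate 3 or shDNM1 replicate 3 and 4 without shControl replicate 2.

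Interferon-stimulated genes often include APOBEC3 genes in other cells. Of 20 listed genes 19 were found by name and 17 tested, with 3 called higher, 2 lower and 12 neither, shares near the 15.6% and 16.2% over all genes, and a median log2 fold change of 0.07. IRF7 rose 1.81-fold (edgeR adjusted p = 5.19e-06) and ISG15 1.64-fold (5.69e-06). STAT2 fell to 81.0% (edgeR adjusted p = 0.0024) and BST2, a tether of budding virus, to 49.5% (2.68 ± 0.546 to 1.32 ± 0.249 CPM, n = 3, adjusted p = 0.0164, and 0.097 without shControl replicate 3, where the list had 1 gene called lower).

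**Figure D5:**
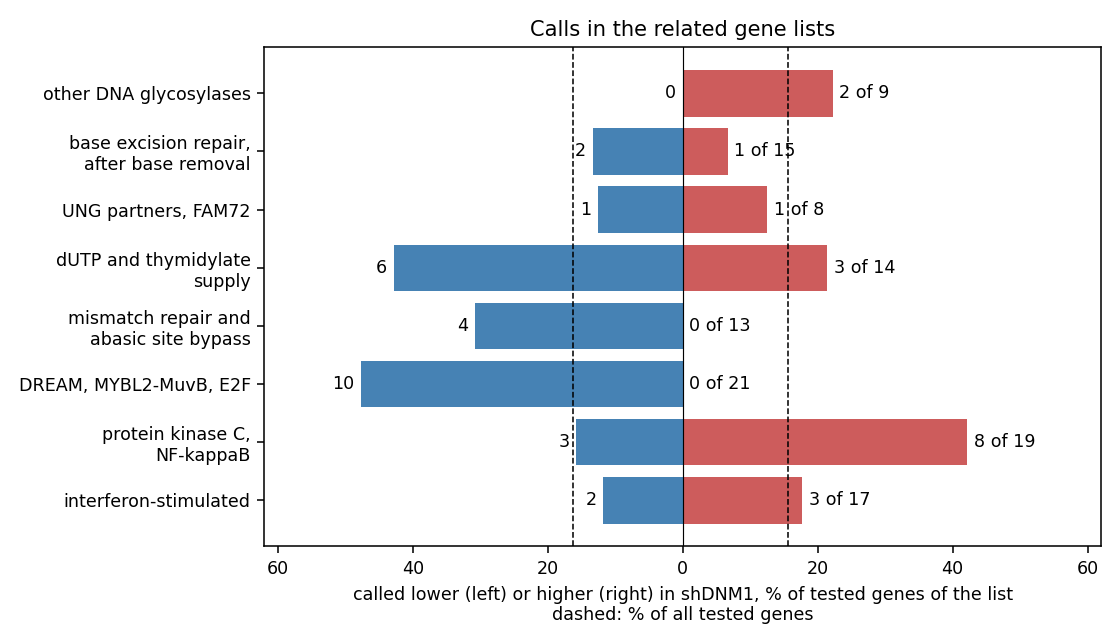
Percent of the tested genes of each related list called lower (left) or higher (right) in shDNM1 at an adjusted p under 0.05; numbers are genes, and dashed lines mark 16.2% lower and 15.6% higher over all 16744 genes tested. The DREAM and E2F list has 10 lower and 0 higher, and the protein kinase C and NF-kappaB list 8 higher and 3 lower.

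By the Euclidean distance of centred log2 CPM over the 6 libraries, the 5 protein-coding genes of 10717 compared (average log2 CPM of at least 2) nearest to APOBEC3B were C6orf15 (distance 0.214), PCDH19, ITPR2, BCL2L15 and SFRP5, at 18.2% to 24.9% of control. Among the 5 nearest to UNG were CADPS2 (distance 0.107), SHMT1 (0.112), TAB2 and BDH1, at 55.0% to 59.4% of control. SHMT1, the third nearest to UNG, also belongs to the thymidylate list above. These distances are dominated by the difference between the 2 groups, which the genes share.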

How the data were processed

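RNA-seq of 3 shControl and 3 shDNM1 libraries was made with the RNeasy mini plus and SMARTER mRNA-seq kits, per the labels' protocols. The authors deposited read counts per gene, and TPM values, here treated as a score because their columns sum to 1734410 to 2048542 as deposited and to 1000000 over unique names. The build is GRCh38, per the submitters' processing notes. For aligner, counter, strand setting and read length the entry is: not given in the sources used here. Of 62710 lines, 2328 share 453 names with identical values and were collapsed, leaving 60835 names. Gene counts summed over these names were 12844534 to 13537519 per library, and the number of reads sequenced is not given. No per-sample column was left unused (0).

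Counts were filtered with filterByExpr (minimum count 10), scaled by TMM (factors 0.966 to 1.02) and tested with edgeR 4.0.16 (quasi-likelihood, common biological coefficient of variation 0.0743), with Benjamini-Hochberg adjustment over 16744 genes and a threshold of 0.05. The code of the fit was checked on simulated counts with 200 changed genes and independently drawn libraries. That check cannot speak for the p-values here, where 5337 genes were called and the spread within a group may be technical. Percent of control and fold are from the fitted log2 fold changes. The script searched 100-base and other windows in GENCODE 29 transcripts and took 2 UNG windows from RefSeq. A window was matched for 3 of the 10 genes (UNG, APOBEC3H and APOBEC1). Group membership came from the sample titles.

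The 10 genes and all lists were chosen with earlier results of these data known. Named genes are all 10; per list, up to 6 called genes with the smallest p, and all tested genes of lists under 10; tested protein-coding genes within 250 kb of the APOBEC3 cluster and 100 kb of UNG and SMUG1; and the 5 genes nearest in pattern to APOBEC3B and UNG. Some genes that this rule names are not reported here, though the list counts include them. Alternatives were RLE (DESeq2 size factor) scaling, upper quartile scaling, library size alone, no low-count filter, a CPM filter (1 or more in 3 libraries), limma-voom, DESeq2 1.42.0 and limma-trend (limma 3.58.1) on log2(TPM + 1) and log2(TPM + 0.1), the replicate number as a block, each library left out, and an adjusted p of 0.01.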

Additional observations from a re-analysis of the deposited data

How the results depend on the processing

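The 10 genes were selected in part on this contrast, so their values under the alternatives are a description and no support. For APOBEC3B, not summed with other genes, the log2 fold change ranged from -2.40 to -2.15. It ranged from -1.1047 to -1.0009 for APOBEC3C, -1.1059 to -1.0039 for APOBEC3F, -1.20 to -1.11 for APOBEC3G and -0.84 to -0.76 for UNG. The genes not called had ranges of -1.36 to -0.64 (APOBEC3D) and 0.12 to 0.24 (SMUG1). Without each library in turn, 5 to 6 of the genes were called lower and 0 to 1 higher (SMUG1, without shControl replicate 2), and DNM1 ranged from -0.2049 to -0.0373 on the log2 scale. At an adjusted p of 0.01, 1739 genes were called higher and 1764 lower, and the counts were 1 lower for family genes, 1 higher for dUTP and thymidylate supply, 2 lower for mismatch repair and bypass, 6 lower for DREAM and E2F, 2 higher for NF-kappaB and 1 lower for interferon-stimulated genes. Bypass had 2 called lower with DESeq2 and on both TPM scales, UNG partners 2 lower with library size alone and on both TPM scales, and NF-kappaB 3 higher on both TPM scales.

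The labels number the libraries 1 to 3 in both groups. Deviations of same-numbered libraries correlated at 0.10, 0.06 and -0.03, and those of differently numbered libraries at -0.098 to 0.033. With 3 libraries per group these values cannot decide whether the numbers pair the libraries. The main fit did not pair them. With the replicate block 2964 genes were called higher and 3116 lower, 5 of the 10 genes were called lower, and glycosylases had 4 higher and 1 lower and later base excision repair 4 lower; the cause was not tested.

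With each library left out in turn, the lowest and highest counts were 1903 to 2939 genes higher and 2034 to 2951 lower over all genes. They were 1 to 3 lower for family genes, and 2 to 3 higher and 0 to 1 lower for glycosylases. UNG partners had 1 to 2 higher and 0 to 1 lower, and dUTP and thymidylate supply 1 to 3 higher. Bypass had 0 to 1 higher and 2 to 4 lower. DREAM and E2F had 7 to 10 lower, NF-kappaB 3 to 8 higher, and interferon-stimulated genes 1 to 3 lower.

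Some genes that were not called changed sign near 0. MBD4 was at -0.0063 with upper quartile scaling, -0.0251 with library size alone and -0.0546 and -0.0558 on the TPM scales, and from -0.1042 to 0.0835 with each library left out. GTPBP1 was at -0.004 with library size alone, -0.0297 and -0.0304 on the TPM scales and from -0.0422 to 0.0887 with each library left out. PPM1D was at -0.004 and -0.0041 on the TPM scales and from -0.0025 to 0.0878 with each library left out. With each library left out, MUTYH ranged from -0.1193 to 0.0009, FAM72A from -0.2048 to 0.003, FAM72B from -0.1191 to 0.0423 and ALKBH2 from -0.1814 to 0.0489. Depth limits APOBEC3D, with 27 counts at most in a library, and APOBEC3A, APOBEC3H and APOBEC1, with 10 at most.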
